A study of Homo sapiens with 3 samples.

Results

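The genes of purine and pyrimidine synthesis were compared between cells depleted of TRAF7 and control cells. They are 33 enzyme genes, chosen by name as the de novo and salvage enzymes of nucleotides without TYMS, the ribonucleotide reductase genes and TK1, among 58735 genes with a value in the deposited tables. TRAF7 is a RING-domain E3 ubiquitin ligase. The tested samples were 2 libraries labelled KG1a, an acute myeloid leukaemia cell line, with the genotype TRAF7 knockdown after infection with shTRAF7 lentivirus (knockdown 1 and knockdown 2). They were set against 1 library labelled KG1a and wild type after infection with shCtrl lentivirus (the control). All 3 libraries carry the same batch label, and the labels do not say whether the knockdown libraries share a hairpin or come from separate cultures, so the spread behind any p-value is that of the libraries and could be technical. The study compared these cells by RNA sequencing, and its title places TWIST1, P2RX1 and calcium downstream of TRAF7.

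Cells make purine nucleotides on a ribose phosphate donor, PRPP, through a chain of steps that ends in inosine monophosphate (IMP), from which AMP and GMP branch. Pyrimidines are instead built as a ring, joined to PRPP to give UMP, and then converted to UTP, CTP and, after reduction, the deoxynucleotides of DNA. Salvage enzymes return free bases and nucleosides to the nucleotide pool at lower cost. Dividing leukaemia cells draw on both routes; IMPDH2 and DHODH are drug targets, and DCK activates the leukaemia drug cytarabine.

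PPAT and PAICS, which encode the first committed enzyme and a later bifunctional enzyme of purine synthesis, lie head to head on chromosome 4 and were both higher in the knockdown libraries. In GENCODE release 29 on GRCh38, the annotation of all gene coordinates given here, their starts are 126 bases apart, at 56435615 for PPAT on the minus strand and 56435741 for PAICS on the plus strand. The RefSeq promoter window of PAICS (GRCh38.p14, chr4:56435502-56435801, plus strand, 250 bases before to 50 after its RefSeq start) covers both starts and is shown because the pair shares it; capitals mark CACGTG, the letters of the canonical E-box bound by MYC and related factors. ATIC, the last enzyme of the chain, has 2 copies of the same letters in its window (chr2:215311809-215312108, plus strand) and is shown for comparison.
PAICS: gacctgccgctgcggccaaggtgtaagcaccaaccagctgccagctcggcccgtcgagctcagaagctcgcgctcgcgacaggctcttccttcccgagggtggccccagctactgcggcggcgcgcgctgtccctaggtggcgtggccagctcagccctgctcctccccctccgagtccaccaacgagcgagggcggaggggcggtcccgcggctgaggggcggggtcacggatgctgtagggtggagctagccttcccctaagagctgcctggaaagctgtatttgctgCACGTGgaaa
ATIC: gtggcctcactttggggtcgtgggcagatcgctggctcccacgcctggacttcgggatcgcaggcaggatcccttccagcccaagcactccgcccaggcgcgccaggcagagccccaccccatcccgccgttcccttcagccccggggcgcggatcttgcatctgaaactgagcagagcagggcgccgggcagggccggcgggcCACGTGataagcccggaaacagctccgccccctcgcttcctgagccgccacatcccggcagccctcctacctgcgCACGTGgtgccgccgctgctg
The copy in the PAICS window, at 56435792 to 56435797, is also the copy found in the PPAT window. CACGTG reads the same on both strands. No other motif was searched, so overlap with other motifs is not known. CACGTG was present in a window of 6 of 31 matched members (PPAT, PAICS, ATIC, DHODH, NME1 and DCK), or 19.4%. Over the 27305 genes in the promoter table the share was 8.77%. PPAT and PAICS are both counted for the copy that they share. The members gave 47 windows, since some genes have several starts, and 6 of these held it, against 7.26% of all 35116 windows. This is a description of letters in fixed windows, and binding was not measured.

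The cells were checked against their labels first. TRAF7 was at 15.6 FPKM in knockdown 1 and 18.3 in knockdown 2, against 46.5 in the control, which is 33.6% and 39.4% of the control. FPKM values are read counts divided by exon length and a library factor. Relative to the geometric mean of assigned reads, that factor was 0.963 and 1.006 in the knockdown libraries and 1.045 in the control. These values equal the median-of-ratios factors of the recovered reads, from genes with reads in all 3 libraries. The length is that of all annotated exons of a gene, for example 11517 bases for CTPS1 and 5510 for CTPS2. Comparisons of level between genes therefore depend on the annotation. Whole reads recovered from the FPKM values came to 16221721 and 16254461 in the knockdown libraries and 16014485 in the control. CD34, the surface antigen for which KG1a is best known, had 1 and 10 reads in the knockdown libraries and 0 in the control, so the defining marker of the labelled line was absent or nearly so in all 3. The erythroid regulator KLF1 was at 61.7 and 55.8 FPKM in the knockdown libraries and 56.5 in the control, and 7 of 8 erythroid markers averaged at least 1 FPKM; the cells are therefore called here the cells labelled KG1a. The summed level of the 8 erythroid markers was 292.9 and 258.9 FPKM in the knockdown libraries and 154.0 in the control, with none at 0 in all 3. That of 6 myeloid markers, of which 2 averaged at least 1 FPKM and ELANE was at 0, was 7.47 and 6.38 FPKM in the knockdown libraries and 13.3 in the control. The 7 stromal and epithelial markers, of which 3 averaged at least 1 FPKM and none was at 0, summed to 162.3 and 144.7 FPKM in the knockdown libraries and 131.6 in the control, so this sum too was higher in both. The 8 stem and progenitor markers, 5 of them averaging at least 1 FPKM and FLT3 at 0, summed to 126.9 and 129.3 FPKM against 135.2 in the control. The 6 lymphoid markers, 1 of them averaging at least 1 FPKM and MS4A1 at 0, summed to 5.62 and 6.81 FPKM against 7.33 in the control. Single markers did not all follow these sums. Among the erythroid markers ALAS2 was lower in both knockdown libraries. Among the stem and progenitor markers KIT and CD99 were higher in both, while PTPRC was lower in both. Scaled to assigned reads (RPM), reads on 894 sense intronic genes came to 448.5 and 475.5 RPM in the knockdown libraries and 553.2 RPM in the control. The part of these differences in the results on nucleotide genes was not tested. In such bulk RNA, a change in the share of a kind of cell and a change in RNA per cell cannot be told apart.

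Most nucleotide synthesis genes were higher in both knockdown libraries than in the control, by moderate amounts, and with the deposited scaling none was lower in both. Of the 33 members, 32 averaged at least 1 FPKM and were tested, and ADSL did not. Of the 32, 24 (75.0%) were above the control in both libraries, 0 were below it in both and 8 lay on different sides. Over all 12640 genes tested, 42.5% were above in both and 30.8% below in both. With the values rescaled, members above and below numbered 24 and 2 (median-of-ratios), 21 and 6 (all assigned reads) and 19 and 4 (quantile normalization). Of all genes, 36.4%, 29.8% and 38.6% were above under these settings, and the shares below were not counted. The median-of-ratios setting repeats the method of the deposited factor, on genes averaging at least 1 FPKM with a value in every library. Genes with higher levels were more often above: among the 7117 genes averaging 5 FPKM or more the share was 53.5%, where 23 of the 30 members that reach that level were above. The median log2 ratio of the members to the control was 0.39 in knockdown 1 and 0.21 in knockdown 2, against 0.07 and 0.04 over all genes tested. Single members ranged from 93.1% to 179.4% of the control in knockdown 1 and from 80.6% to 151.2% in knockdown 2.

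**Figure D1:**
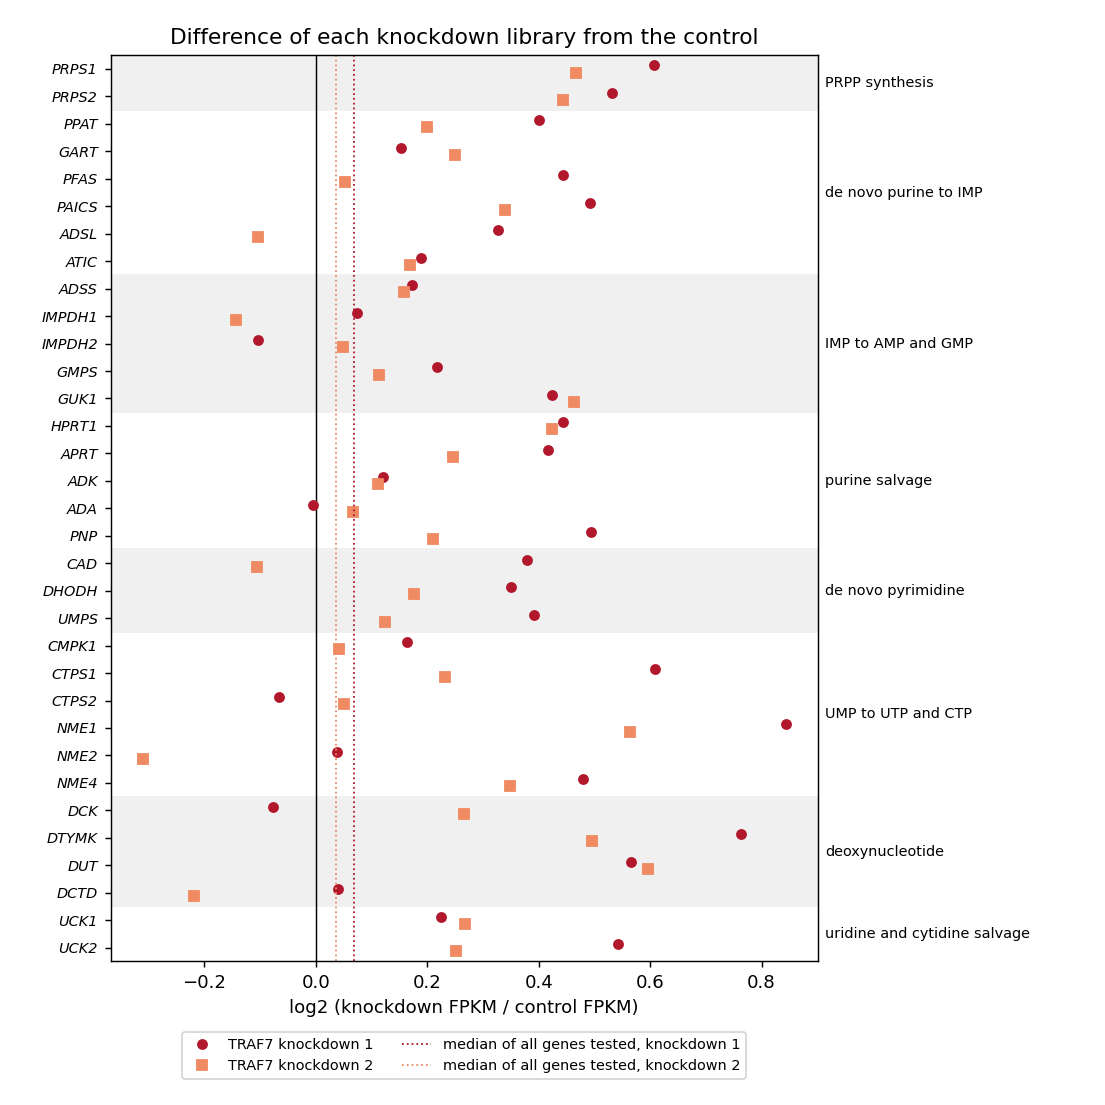
Log2 ratio of the FPKM in each TRAF7 knockdown library to that in the control, for each of the 33 genes grouped by role. Circles are knockdown 1, squares knockdown 2, and dotted lines the medians of all genes tested (0.07 and 0.04); 24 of the 32 tested genes have both points above 0 and 0 have both below.

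No member passed the test across all genes. By limma with intensity trend on log2(FPKM + 1) and Benjamini-Hochberg adjustment at 0.05, 0 of 32 members passed, as did 0 of all 12640 genes (0.0%), and the smallest adjusted p of a member was 0.450. At an unadjusted p under 0.05 there were 8 members, all higher, against 9.19% of all genes in either direction and 5.46% higher. Limma-voom on the recovered reads, which called 130 of 15034 genes (0.865%), also called 0 of the members, with a smallest adjusted p of 0.0858; 10 members had an unadjusted p under 0.05, all higher, against 12.1% of all genes in either direction and 5.73% higher. The fits have 1 residual degree of freedom, from the 2 knockdown libraries, and assume that the lone control varies as they do. All changes below are therefore values, with their fitted log2 fold change and standard error where given, and not calls.

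Counting error is smaller than these differences for many members, but it is not the spread between cultures. The exact 95% Poisson intervals of the recovered reads lay above the control's in both knockdown libraries for 16 of the 32 members, where 16.0% of all genes tested did, and 26.7% of those averaging 5 FPKM or more; they lay below it in both for 0 members, where 7.81% of all genes tested did. The intervals of the knockdown libraries were also apart from each other for 19 of the 32 (34.0% of all genes, and 46.4% at an average of 5 FPKM or more). In 16 of those 19, knockdown 1 was the higher. The matching share of all genes was not counted, so this count is not read as a result about the members. Over all 32, the ratio to the control was larger in knockdown 1 for 24, or 75.0%, against 54.6% of all genes tested. Annotated pseudogenes bearing the name of a member could share its reads; the 8 of DUT had 31 and 22 reads in the knockdown libraries and 17 in the control, at most 2.28% of those of DUT, and the 7 of IMPDH1 had 36 and 48 against 60, at most 3.15% of those of IMPDH1. For PRPS1, PPAT, PAICS, GMPS, HPRT1 and NME1 the share was at most 1.14%, and for NME2 it was 1.12% and 9.59% against 5.32%.

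**Figure D2:**
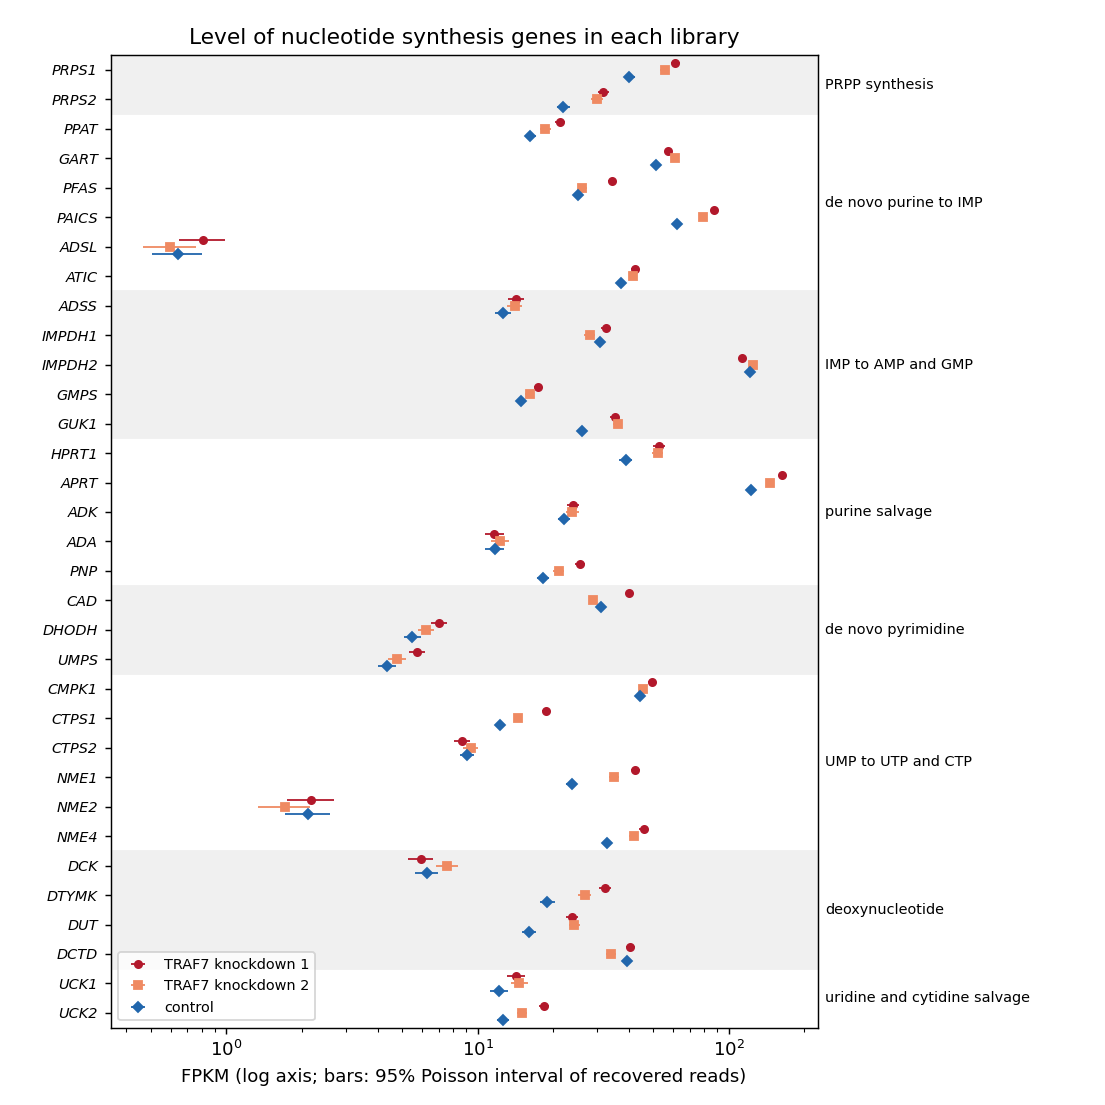
FPKM of each of the 33 genes on a log axis in knockdown 1 (circles), knockdown 2 (squares) and the control (diamonds), with exact 95% Poisson intervals of the recovered reads as bars. Levels run from below 1 FPKM for ADSL to above 100 FPKM for IMPDH2 and APRT.

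The PRPP synthetases, which make the ribose phosphate donor PRPP, were both higher. PRPS1 (chromosome X, 107628424 to 107651026, plus strand) was at 61.3 FPKM in knockdown 1 (95% Poisson interval 58.9 to 63.8) and 55.6 in knockdown 2 (53.4 to 57.9), against 40.2 in the control (38.4 to 42.2). PRPS2, its isoenzyme on the short arm of the same chromosome (12791355 to 12824222, plus strand), was at 31.7 and 29.9 FPKM in the knockdown libraries and 21.9 in the control. Both knockdown libraries were above the control for each gene and the intervals did not overlap with it. Fitted log2 fold changes of PRPS1 and PRPS2 were 0.53 ± 0.17 and 0.47 ± 0.17 (SE; limma adjusted p = 0.490 and 0.524). PRPS1 stood at 1.93 and 1.86 times PRPS2 in the knockdown libraries and 1.83 times in the control.

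The de novo chain from PRPP to IMP was higher in both libraries for all 5 of its 6 genes that were tested, with a median log2 ratio of 0.40 in knockdown 1 and 0.20 in knockdown 2. PAICS (56435741 to 56464579 on chromosome 4) was at 87.4 FPKM in knockdown 1 and 78.7 in knockdown 2, against 62.2 in the control, on 7891 to 10228 reads. Its divergent neighbour PPAT (56393362 to 56435615) was at 21.4 and 18.6 FPKM in the knockdown libraries and 16.2 in the control. The pair differed in the same direction and order, knockdown 1 highest and control lowest, with PAICS by more: PAICS had a fitted log2 fold change of 0.41 ± 0.16 (SE; limma adjusted p = 0.538) and PPAT one of 0.28 ± 0.19. PFAS, which makes formylglycinamidine ribonucleotide, was at 34.3 FPKM in knockdown 1 but at 26.1 in knockdown 2, next to 25.2 in the control, so only 1 library set it apart. GART, a trifunctional enzyme whose gene shares 3.5% of its exon bases with SON on the other strand, was at 57.2 and 61.1 FPKM in the knockdown libraries and 51.4 in the control. ATIC was at 42.3 and 41.7 FPKM in the knockdown libraries, which agree within counting error, and 37.1 in the control. GART and ATIC, with fitted log2 fold changes of 0.20 and 0.17, had −0.0087 and −0.012 under quantile normalization, so their direction depends on the scaling.

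ADSL, which acts both in this chain and on the way to AMP, could not be read from these tables. It was listed at 0.804 and 0.597 FPKM in the knockdown libraries and 0.641 in the control, on 89, 69 and 77 reads, in contrast to 16.2 to 87.4 FPKM for the other 5 genes of the chain. In GENCODE release 29, 68.8% of its coding bases also lie in exons of AL022238.4, a protein-coding gene annotated across ADSL on the same strand, and that gene had 5, 1 and 2 reads. How reads that fall in 2 genes were counted is not stated in the labels or headers, so the level of ADSL is uncertain.

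At the branch from IMP, the enzymes of the guanine side differed among themselves. IMPDH2, the main IMP dehydrogenase of dividing cells and the rate-limiting enzyme of GTP synthesis, was at 112.5 FPKM in knockdown 1 and 125.1 in knockdown 2, against 120.9 in the control, so the control lay between them. IMPDH1, the other isoenzyme, was at 32.4 and 27.9 FPKM in the knockdown libraries and 30.8 in the control, again with the control between. Fitted log2 fold changes of IMPDH2 and IMPDH1 were −0.03 ± 0.15 and −0.03 ± 0.19 (SE). GMPS, which aminates XMP to GMP, was at 17.4 and 16.2 FPKM in the knockdown libraries and 14.9 in the control, with the Poisson interval of knockdown 1 above the control's and that of knockdown 2 overlapping with it. GUK1, the kinase that takes GMP to GDP, stood apart from the others of this branch. It lies on chromosome 1 (228139962 to 228148984, plus strand) and was at 35.1 FPKM in knockdown 1 and 36.1 in knockdown 2, against 26.1 in the control, with a fitted log2 fold change of 0.43 ± 0.17 (limma adjusted p = 0.537). On the adenine side, ADSS, which commits IMP to AMP, was at 14.2 and 14.1 FPKM in the knockdown libraries and 12.6 in the control, with overlapping intervals. IMPDH2 was 3.47 and 4.48 times IMPDH1 in the knockdown libraries and 3.92 times in the control.

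Purine salvage split into genes that were higher and genes near the control. HPRT1, which returns hypoxanthine and guanine to IMP and GMP (chromosome X, 134460153 to 134520513, plus strand), was at 52.8 FPKM in knockdown 1 and 52.1 in knockdown 2, against 38.8 in the control. APRT, which does the same for adenine (chromosome 16, 88809339 to 88811944, minus strand), was the most abundant member, at 163.4 and 145.2 FPKM in the knockdown libraries and 122.5 in the control. In the control the intervals of APRT and IMPDH2 overlapped, whereas in both knockdown libraries APRT was the higher. HPRT1 had a fitted log2 fold change of 0.42 ± 0.16 and APRT one of 0.33 ± 0.15 (SE; limma adjusted p = 0.532 and 0.569). PNP, which splits inosine and guanosine, was at 25.6 FPKM in knockdown 1, 21.0 in knockdown 2 and 18.2 in the control; a lincRNA on an overlapping stretch of 11.9% of its exon bases had 0 reads. ADK, the adenosine kinase, was at 24.0 and 23.9 FPKM in the knockdown libraries and 22.1 in the control. ADA, which deaminates adenosine, was at 11.6 and 12.2 FPKM in the knockdown libraries and 11.7 in the control. For ADK and ADA all 3 intervals overlapped, and their fitted log2 fold changes of 0.11 and 0.03 turned to −0.03 and −0.04 under quantile normalization; ADA was also at −0.020 under median-of-ratios rescaling and −0.069 when scaled to all assigned reads.

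Among the genes of de novo pyrimidine synthesis, CAD had the largest difference between the knockdown libraries. CAD, the trifunctional enzyme that starts the route (chromosome 2, 27217390 to 27243943, plus strand), was at 40.2 FPKM in knockdown 1 (39.2 to 41.3) and 28.8 in knockdown 2 (27.9 to 29.7), against 30.9 in the control (30.0 to 31.9). The libraries thus lay on opposite sides of the control, with no overlap of either interval with it, and the fitted log2 fold change of 0.13 ± 0.24 (SE), which was −0.043 under quantile normalization, describes neither. DHODH, the mitochondrial dehydrogenase of the route, was at 7.02 and 6.22 FPKM in the knockdown libraries and 5.50 in the control. UMPS, which forms UMP, was at 5.74 and 4.77 FPKM in the knockdown libraries and 4.38 in the control. Both were highest in knockdown 1, where the interval lay above the control's, and in knockdown 2 it overlapped with the control's. The median log2 ratio of the 3 genes was 0.38 in knockdown 1 and 0.12 in knockdown 2.

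From UMP onwards, the CTP synthases differed from each other. CTPS1, the isoenzyme that proliferating lymphocytes depend on (chromosome 1, 40979335 to 41012565, plus strand), was at 18.8 FPKM in knockdown 1 (18.1 to 19.4) and 14.4 in knockdown 2 (13.9 to 14.99), against 12.3 in the control (11.8 to 12.8). CTPS2 was at 8.68 and 9.41 FPKM in the knockdown libraries and 9.08 in the control, with all 3 intervals overlapping. The ratio of CTPS1 to CTPS2 was 2.16 and 1.53 in the knockdown libraries and 1.35 in the control. CTPS1 had a fitted log2 fold change of 0.39 ± 0.22 (SE; limma adjusted p = 0.627) and CTPS2 one of −0.0068 ± 0.18, and the difference between the isoenzymes was not tested. CMPK1, which phosphorylates UMP and CMP, was at 49.5 and 45.5 FPKM in the knockdown libraries and 44.2 in the control, and its fitted log2 fold change of 0.10 became −0.08 under quantile normalization and −0.0025 when scaled to all assigned reads.

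**Figure D3:**
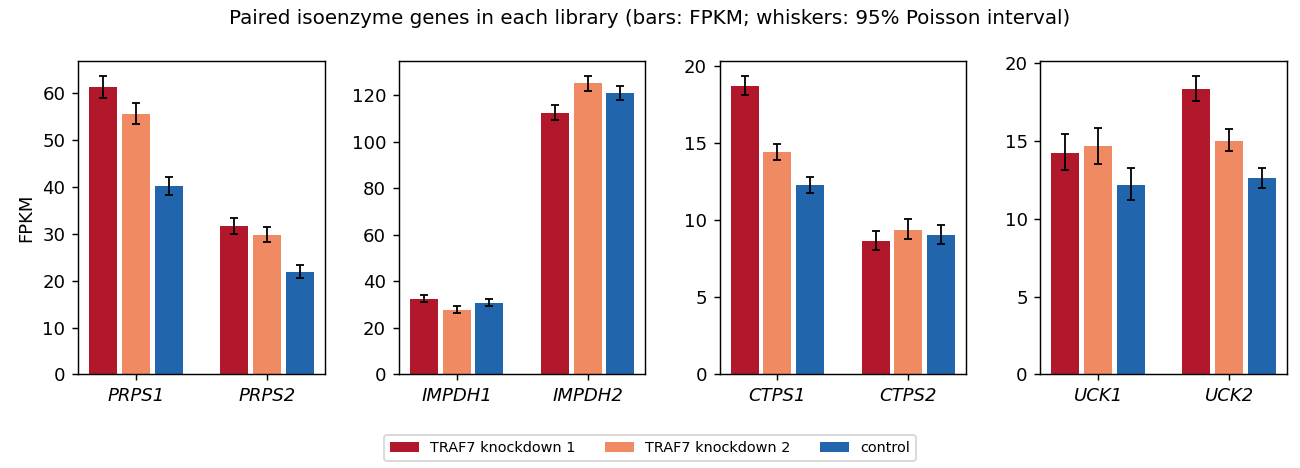
FPKM of 4 pairs of isoenzyme genes in knockdown 1, knockdown 2 and the control (bars from 0, exact 95% Poisson intervals of recovered reads as whiskers, 1 library per bar). PRPS1 and PRPS2 are both higher in the knockdown libraries, CTPS1 is higher while CTPS2 is level, and the IMPDH1 and IMPDH2 controls lie between their knockdown libraries.

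The nucleoside diphosphate kinases, which make triphosphates from their diphosphates, held the member with the largest difference. NME1 (chromosome 17, 51153536 to 51162428, plus strand) was at 42.5 FPKM in knockdown 1 (40.7 to 44.2) and 35.0 in knockdown 2 (33.5 to 36.6), against 23.7 in the control (22.4 to 24.96), which is 179.4% and 147.9% of the control. It had a fitted log2 fold change of 0.68 ± 0.20 (SE; limma adjusted p = 0.450, limma-voom adjusted p = 0.0858). NME4, the mitochondrial member of the family, was at 45.8 and 41.8 FPKM in the knockdown libraries and 32.8 in the control (0.40 ± 0.17, limma adjusted p = 0.556). It shares 15.6% of its exon bases and 20.6% of its coding bases with DECR2 on the same strand, so its level is uncertain. DECR2 had 367 and 299 reads in the knockdown libraries and 289 in the control. NME2, the other main cytosolic kinase, was listed at 2.17 and 1.71 FPKM in the knockdown libraries and 2.12 in the control, on 89, 73 and 94 reads. All of its annotated coding bases and 75.6% of those of NME1 also lie in exons of the readthrough gene NME1-NME2, which had 2, 1 and 2 reads. NME1 and NME2 are also close copies in sequence, so the split between the 3 genes is uncertain, and with it the level of NME2 and the size of the difference in NME1.

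Enzymes that prepare deoxynucleotides for DNA included a pair among the largest differences and a pair with the knockdown libraries on different sides of the control. DTYMK, the thymidylate kinase (chromosome 2, 241675742 to 241686991, minus strand), was at 32.1 FPKM in knockdown 1 (30.4 to 34.0) and 26.7 in knockdown 2 (25.1 to 28.4), against 18.9 in the control (17.6 to 20.3). DUT, which removes dUTP and supplies dUMP for thymidylate (chromosome 15, 48331011 to 48343373, plus strand), was at 23.8 FPKM in knockdown 1 and 24.3 in knockdown 2, against 16.1 in the control. The knockdown libraries agreed within counting error for DUT and not for DTYMK, and for both genes they lay above the control with no overlap. DTYMK had a fitted log2 fold change of 0.60 ± 0.20 and DUT one of 0.55 ± 0.17 (SE; limma adjusted p = 0.490 and 0.482). An antisense gene, AC023355.1, covers 14.5% of the exon bases of DUT and had 3, 9 and 19 reads, so its reads are few beside the 1359, 1450 and 996 of DUT. DCK, the deoxycytidine kinase, was at 5.95 FPKM in knockdown 1 and 7.55 in knockdown 2, on either side of 6.28 in the control, and its fitted log2 fold change was −0.0081 when scaled to all assigned reads. Exons of MOB1B on the same strand hold 19.8% of the coding bases of DCK, so the level of DCK is uncertain. MOB1B had 1111 and 1104 reads in the knockdown libraries and 1194 in the control, beside 299 and 396 against 342 for DCK. DCTD, which deaminates dCMP, was at 40.5 FPKM in knockdown 1 and 33.9 in knockdown 2, on either side of 39.4 in the control. For both, the intervals of the knockdown libraries were apart from each other; that of DCTD in knockdown 2 (32.3 to 35.4) lay below the control's (37.8 to 41.0), while those of DCK overlapped with the control's.

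Salvage of uridine and cytidine was higher in both libraries for its 2 kinases. UCK2, the isoenzyme more often raised in tumours, was at 18.4 FPKM in knockdown 1 and 15.03 in knockdown 2, against 12.6 in the control (chromosome 1, 165827531 to 165911618, plus strand). UCK1 was at 14.2 and 14.7 FPKM in the knockdown libraries and 12.2 in the control. The intervals of UCK2 lay above the control's in both libraries, and for UCK1 the interval of knockdown 1 overlapped with it. UCK2 had a fitted log2 fold change of 0.37 ± 0.20 (SE; limma adjusted p = 0.623) and UCK1 one of 0.23 ± 0.18. UCK2 stood at 1.29 and 1.02 times UCK1 in the knockdown libraries and 1.04 times in the control.

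Set side by side, the 8 groups had fitted medians from 0.15 to 0.50 on the log2 scale. The group of PRPP synthesis was at 0.50, purine salvage at 0.33, deoxynucleotide enzymes at 0.32, uridine and cytidine salvage at 0.30, UMP to UTP and CTP at 0.25, the de novo purine chain at 0.24, de novo pyrimidine synthesis at 0.21 and the branch from IMP at 0.15. The median over the 32 members was 0.23, against 0.04 over all genes tested and 0.11 over those averaging 5 FPKM or more. The groups hold 2 to 6 genes each, single genes of the group from UMP to UTP and CTP ran from −0.09 to 0.68, and the order was not tested. Summed over the 33 genes, the level was 1181 FPKM in knockdown 1 and 1096 in knockdown 2, against 943.9 in the control, or 125.1% and 116.1% of it. The same sum over all genes was 111.4% and 107.9% of the control, since the deposited scaling does not hold total FPKM constant. Scaled to assigned reads instead, the 33 genes took 4755 and 4527 RPM in the knockdown libraries and 4145 RPM in the control, which is 114.7% and 109.2% of the control.

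**Figure D4:**
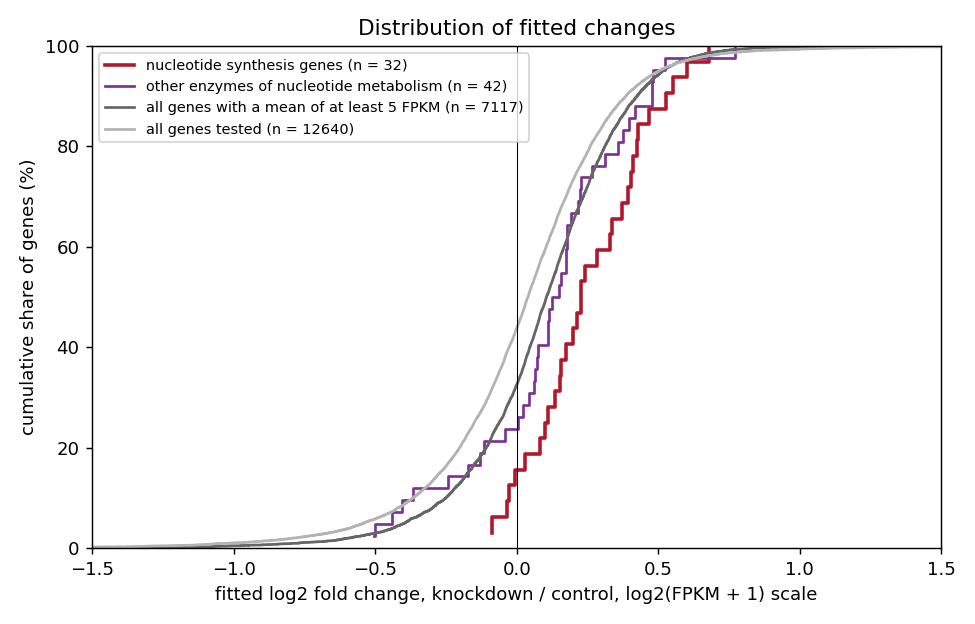
Cumulative share of genes (percent) by fitted log2 fold change of knockdown over control on the log2(FPKM + 1) scale, for 32 nucleotide synthesis genes, 42 other enzymes of nucleotide metabolism, 7117 genes averaging 5 FPKM or more and all 12640 genes tested. The curve of the nucleotide synthesis genes lies furthest right over most of its range, with a median of 0.23 against 0.04 for all genes, and it starts at −0.09.

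Among other enzymes of nucleotide metabolism, more were higher than lower in both knockdown libraries. Of 57 listed, 42 averaged at least 1 FPKM; 28 of these (66.7%) were higher in both knockdown libraries and 10 (23.8%) lower, against 42.5% and 30.8% of all genes tested, and their median fitted log2 fold change was 0.14. The count of higher genes was 23 under quantile normalization and 20 when values were scaled to all assigned reads. Of all genes, 38.6% and 29.8% were higher in both under these settings. By limma 0 passed over all genes (5 had an unadjusted p under 0.05, all higher, against 9.19% of all genes in either direction and 5.46% higher). By limma-voom 0 passed, and 10 had an unadjusted p under 0.05, 7 higher and 3 lower (TK2, NT5C2 and GDA), against 12.1% of all genes in either direction and 5.73% higher. DCTPP1, which hydrolyses dCTP and its analogues, was at 63.4 and 48.1 FPKM in the knockdown libraries and 31.9 in the control (log2 fold change 0.77 ± 0.22, SE; limma adjusted p = 0.447); 42.1% of its exon bases lie in ZNF771 on the other strand, which had 249 and 218 reads in the knockdown libraries and 167 in the control, beside 1559 and 1237 against 852 for DCTPP1. AK6 was at 15.5 and 15.2 FPKM in the knockdown libraries and 10.7 in the control, a level that is uncertain because 26.1% of its coding bases lie in exons on the same strand of other genes, mainly TAF9, which had 2534 and 2718 reads in the knockdown libraries and 2728 in the control. NUDT1, which removes oxidised purine nucleotides, was at 12.2 and 12.8 FPKM in the knockdown libraries and 8.69 in the control.

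Of the enzymes of deoxynucleotide production left out of the main list, TK1, RRM1, RRM2 and TYMS were higher in both knockdown libraries and RRM2B was near the control. The salvage kinase TK1 was at 75.3 and 85.5 FPKM in the knockdown libraries and 55.5 in the control. The large reductase subunit RRM1 was at 48.3 and 43.5 FPKM against 34.6 in the control, and the small subunit RRM2 at 26.0 and 18.9 FPKM against 15.6. RRM2B, the other small subunit, was at 5.91 and 5.83 FPKM in the knockdown libraries and 6.06 in the control. TYMS was at 40.6 and 33.01 FPKM in the knockdown libraries and 27.96 in the control; 46.6% of its exon bases lie in other genes on the opposite strand, mainly ENOSF1, and 78.5% of the coding bases of RRM2 lie in another gene on the same strand, so both levels are uncertain. Among genes lower in both libraries were TK2, the mitochondrial thymidine kinase, at 1.29 and 1.78 FPKM against 2.58 in the control, and the cytosolic nucleotidase NT5C2, at 5.36 and 4.26 FPKM against 6.66. Other genes on the same strand share 14.7% of the coding bases of TK2, and CNNM2 on the other strand shares 36.7% of the exon bases of NT5C2. The nucleoside transporter SLC29A1 was at 25.1 and 22.0 FPKM in the knockdown libraries and 18.1 in the control.

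Several catabolic and salvage enzymes had no reads. MTAP, which recycles methylthioadenosine to adenine, had 0 reads in all 3 libraries, which allows up to 0.0132 and 0.0126 FPKM in the knockdown libraries and 0.0122 in the control (3 reads each, counting error only). That limit does not cover reads left uncounted in shared exons. Of MTAP, 35.5% of the coding bases and 7.83% of all exon bases lie in exons of other genes on the same strand. Xanthine dehydrogenase (XDH), the ecto-nucleotidase NT5E, cytidine deaminase (CDA), AMPD1, UPB1 and NME5 were also at 0 reads in all 3. The first enzyme of pyrimidine breakdown, DPYD, had 0 and 1 reads in the knockdown libraries and 0 in the control.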

How the data were processed

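RNA was sequenced from 2 TRAF7 knockdown libraries and 1 control library. The authors deposited FPKM values, 1 per Ensembl gene and library, per the file headers. BWA, Bowtie and hg19 are named in the submitters' processing notes; roles, versions and the counting tool are not given in the sources used here. All 58735 identifiers matched GENCODE release 29 (GRCh38), whose symbols, coordinates and exon lengths were used, and FPKM times exon length was a whole multiple of 1 step in 100% of the non-zero values, at a tolerance of 0.05, which gave the reads. The fit was limma 3.58.1 in R 4.3.3 with trend on log2(FPKM + 1) of genes averaging 1 FPKM or more, with Benjamini-Hochberg adjustment over all genes; this scale understates the change of low genes. Poisson intervals (95%) and floors of 3 reads cover counting error only. Promoter windows are RefSeq's (GRCh38.p14); 31 of 33 members matched, ADSS through a synonym. All 33 members are named; the 12 with the lowest p are given fold change, error and adjusted p, and from the other enzymes RRM1, RRM2, TYMS, TK1 and up to 8 with the lowest p are named, with genes at 0 reads chosen after their values were seen; 1 gene that this rule names is not reported here. The members and lists were chosen with earlier results of these data known. Alternatives were other pseudocounts, filters, scalings, no trend, limma-voom on reads, protein-coding genes only and each knockdown library alone.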

Additional observations from a re-analysis of the deposited data

How the results depend on the processing

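With 1 control library and 1 residual degree of freedom, the tests have little to rest on, and no alternative that gave a p called a member or one of the other enzymes. The number of genes called among all was 3 at a mean of at least 5 FPKM, 13 among protein-coding genes and 130 by limma-voom. Members higher in both libraries numbered 24 under most settings, 23 at a mean of at least 5 FPKM, 21 when scaled to all assigned reads and 19 under quantile normalization, where the background was 53.5%, 29.8% and 38.6%. Members lower in both numbered 4 under quantile normalization, 2 under median-of-ratios rescaling and 6 when scaled to all assigned reads. Of all genes tested, 30.8% were lower in both with the deposited scaling, and the share was not counted under these 3 settings. With 1 knockdown library at a time, the median log2 fold change of the members was 0.19 to 0.35, the higher in knockdown 1 alone. The median log2 ratio of all genes tested was 0.07 in knockdown 1 and 0.04 in knockdown 2. In each library alone 28 members were higher and 4 lower, and 29 to 31 of the other enzymes were higher. The matching shares of all genes were not counted, so these counts are not read as a result about the members.

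Of 414 values of single members under the alternatives, 396 kept their direction and 18 turned, all of them small. Under quantile normalization these were GART (−0.0087), ATIC (−0.012), ADK (−0.027), ADA (−0.045), CAD (−0.043) and CMPK1 (−0.078). Under median-of-ratios rescaling it was ADA (−0.020), and scaled to all assigned reads ADA (−0.069), CMPK1 (−0.0025) and DCK (−0.0081). In knockdown 1 alone and knockdown 2 alone, IMPDH1 was at 0.071 and −0.14, IMPDH2 at −0.10 and 0.048, ADA at −0.0051 and 0.062, CAD at 0.37 and −0.10, CTPS2 at −0.059 and 0.046, NME2 at 0.026 and −0.20, DCK at −0.066 and 0.23, and DCTD at 0.039 and −0.21. The cause was not tested beyond the scaling itself. Scaling moved the median of all genes between −0.05 and 0.04. No paired analysis was possible because the control has 1 library and shares fewer than 2 replicate numbers with the knockdown libraries.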
